A study of Mus musculus with 6 samples.

Results

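The genes described here belong to the unfolded protein response and to the amino acid stress response, followed in mouse embryonic stem cells kept with or without a vitamin C derivative. They were chosen by name, with earlier results of these data known. The list holds 38 genes known as ATF4 targets, XBP1 and ATF6 targets, or chaperones of the endoplasmic reticulum (ER). Of these, 36 had at least 1 array feature annotated with a single gene symbol, and they were measured by 37 of the 23521 such features, because the degradation factor gene Edem1 has 2. The other two, Aars and Pdia4, lie on features shared with a second gene and were not tested. The 36 genes were split into an ATF4 branch of 18 genes and an XBP1 and ATF6 branch of 18 genes.

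Unfolded proteins in the ER are sensed by 3 membrane proteins, PERK (gene Eif2ak3), IRE1 (Ern1) and ATF6. PERK phosphorylates the translation factor eIF2, as do other kinases that sense amino acid shortage, and this favours translation of the transcription factor ATF4. ATF4 in turn induces genes for amino acid uptake, synthesis and tRNA charging. IRE1 splices the mRNA of Xbp1, and XBP1 and cleaved ATF6 induce chaperones, folding enzymes and the machinery that removes misfolded proteins. Splicing, phosphorylation and cleavage are not read by an array of transcript levels.

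R1 cells are a male embryonic stem cell line from a 129X1 x 129S1 cross, grown on gelatin with serum and the self-renewal cytokine LIF. The treated cells were held for 3 days with 0.74 mM (250 µg/ml) AA2G, named ascorbic acid 2-glucose in the labels, a glucose-bound form of vitamin C that is stable in culture medium. The untreated cells had the same 3 days without it. Each group has 3 replicates, called independent in the design text, each on 1 Affymetrix Mouse Gene 2.0 ST array, and a single cell line was used. No label says whether a replicate is a separate culture, so the spread between them may be technical.

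The values are log2 expression levels made by the authors with RMA, a background correction, normalization and summary procedure. Array medians lay between 5.06 and 5.10, and each level below is on this log2 scale. The 10 stem cell markers were clearly measured, with Tdgf1, Utf1 and Zfp42 the brightest: Tdgf1 averaged 12.05 in AA2G and 11.999 in untreated replicates, Utf1 11.39 in AA2G and 11.48 in untreated, and Zfp42 11.30 in AA2G and 11.25 in untreated. The list summed to 13.94 to 14.01 with AA2G and to 14.01 to 14.03 without, and 8 of its 10 members were lower with AA2G, 3 of them (Klf4, Nanog and Pou5f1) with no overlap between groups, against 8.48% of all features that lay below with no overlap; 0 passed the adjusted threshold. Markers of fibroblasts had a summed level of 8.96 to 9.05 with AA2G and of 8.93 to 9.02 without. Those of trophoblast summed to 9.65 to 9.75 with AA2G and to 9.65 to 9.85 without. Krt8 and 1 feature of Krt18 lay below without overlap, at -0.35 and -0.43, while the other Krt18 feature was at 0.12. Of the 12 trophoblast features 7 were positive, and their median was 0.04. Among fibroblast markers Col1a1 lay above and Dcn below without overlap. The 18 primitive endoderm markers summed to 11.06 to 11.09 in AA2G replicates and to 10.98 to 11.04 in untreated ones, so AA2G arrays were the higher here. Its brightest markers were Lamc1, Sparc and Lama1, and of the 18 genes 9 were higher and 9 lower with AA2G. Without overlap 3 lay above and 5 below, with 0 past the adjusted threshold. Over all features 7.21% lay above and 8.48% below without overlap, shares that stand beside each of these marker lists. The part of these marker shifts in the results below was not tested, and in bulk RNA fewer cells of a type and less RNA per cell cannot be told apart.

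No member passed the test of AA2G against untreated cells. In the limma model, 0 of 37 member features had a Benjamini-Hochberg adjusted p under 0.05, where 0.761% of all 23521 features did. With no adjustment, a p under 0.05 was reached by 4 member features that were higher (10.8%, against 4.66% of all features) and by 1 that was lower (2.7%, against 5.06%). The higher ones were the amino acid transporter gene Slc7a5, the degradation gene Herpud1, the glutathione-degrading enzyme gene Chac1 and the ER protein gene Creld2. The lower one was the co-chaperone gene Dnajb9.

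Most members nevertheless had a small positive value. The log2 fold change (AA2G minus untreated) was positive for 31 of the 37 member features, or 83.8%, against 47.7% of all features. Among the 134 features of further pathway genes read below the share was 61.9%. By list of those genes it ran from 33.3% (cytosolic heat shock) to 87.5% (ER translocation and glycosylation), so a high share was not particular to the members. The median was 0.07 over the members and -0.01 over all features. It was 0.11 in the ATF4 branch, where 17 of 18 features were positive, and 0.05 in the XBP1 and ATF6 branch, where 14 of 19 were. Without untreated replicate 2 the ATF4 branch had a median of 0.097 with 12 of 18 positive. The XBP1 and ATF6 branch then had a median of 0.044 with 16 of 19 positive. Without untreated replicate 1 the 2 medians were 0.17 and 0.090. The 3 AA2G arrays all lay above the 3 untreated arrays for 8 member features (21.6%, against 7.21% of all features) and all below for 2 (5.41%, against 8.48%). Among the 8 is the dimmer feature of Edem1, whose brighter feature was at -0.03 with overlapping groups. Members share arrays and many are induced together, so these counts describe 6 replicates and are not independent of each other. The members were also chosen with earlier results of these data known, so their shares beside those of all features are no independent test.

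**Figure D1:**
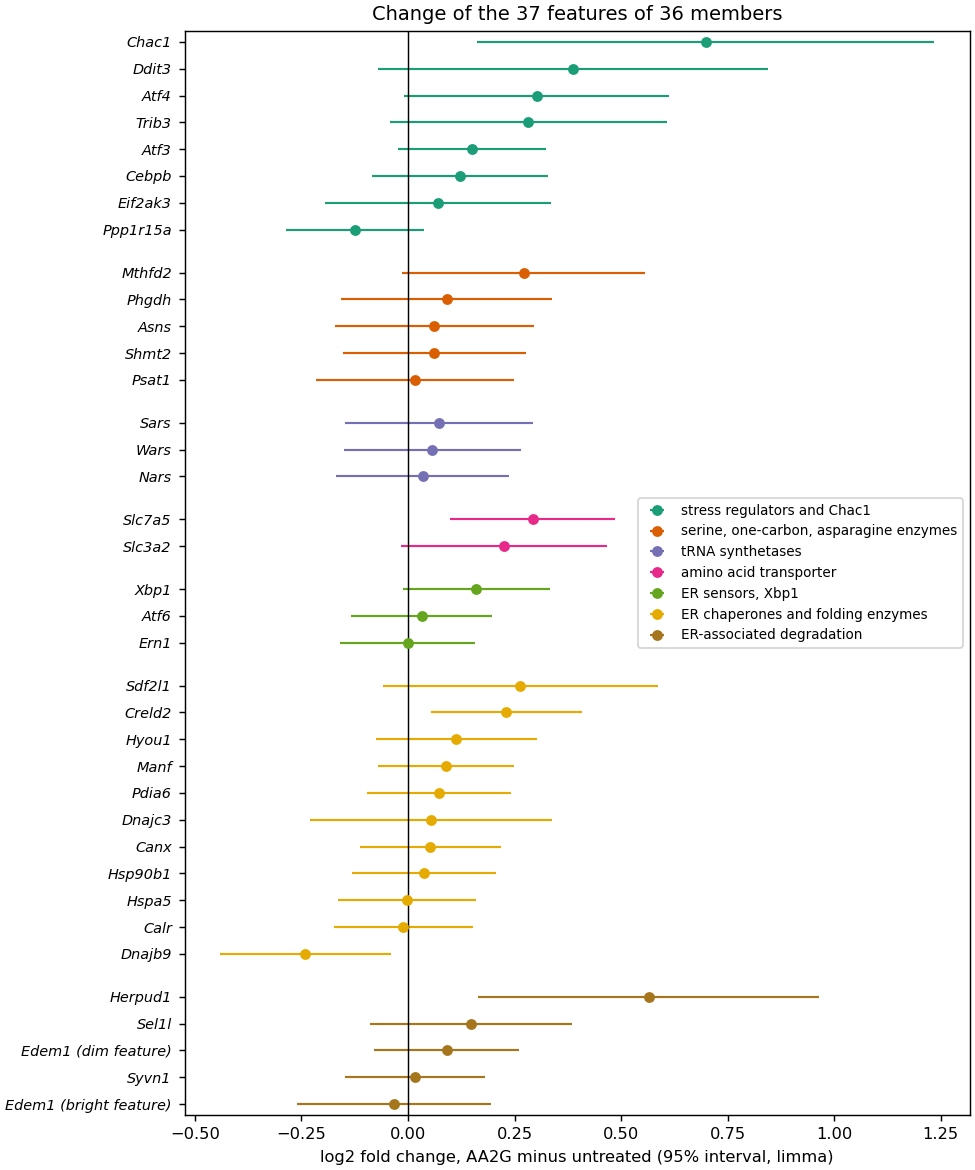
The log2 fold change of each member feature, AA2G minus untreated, with its 95% interval from the limma model, 3 arrays a group, coloured by role. The intervals of Chac1, Slc7a5, Creld2 and Herpud1 lie above 0, that of Dnajb9 lies below 0, and the intervals of the ER sensors and of Hspa5 and Calr are centred near 0.

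The transcription factor and feedback genes of the stress response come first, and Chac1 had the largest value of all members. Chac1 (Entrez Gene 69065) was at 7.57, 7.93 and 7.75 in the 3 AA2G replicates and at 7.49, 6.48 and 7.18 in the 3 untreated replicates. The groups did not overlap, but untreated replicate 1 came within 0.08 of AA2G replicate 1, and untreated replicate 2 stood far below the rest. The log2 fold change was 0.70 ± 0.23 (SE; limma adjusted p = 0.341), a fold of 1.62 with a 95% interval of 1.12 to 2.35.

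Ddit3 (13198), which encodes the pro-apoptotic factor CHOP, was at 6.61, 6.58 and 6.83 with AA2G and at 6.75, 5.88 and 6.22 without. Untreated replicate 1 was above 2 of the 3 AA2G replicates, so the groups overlapped, and untreated replicate 2 was again the lowest. The fold change was 0.39 ± 0.20 (SE; limma adjusted p = 0.598). Atf4 (11911), the branch's main transcription factor, was at 9.36, 9.71 and 9.63 with AA2G and at 9.43, 9.004 and 9.36 without. It showed the same order among the untreated replicates, with replicate 1 highest and replicate 2 lowest, at 0.30 ± 0.14 (adjusted p = 0.525).

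Trib3 (228775), a pseudokinase that restrains ATF4, was at 7.55, 7.99 and 7.64 in AA2G replicates and at 7.67, 7.37 and 7.28 in untreated ones, a fold change of 0.28 ± 0.14 (SE; limma adjusted p = 0.585). Its untreated replicate 1 lay above 2 AA2G replicates. Atf3 (11910), a stress-induced transcription factor, was at 6.08, 6.16 and 6.05 with AA2G and at 6.00025, 5.86 and 5.99 without. These groups did not overlap, and the fold change was 0.15 ± 0.08 (adjusted p = 0.587).

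The remaining regulators had smaller values. Ppp1r15a (17872), also called GADD34, which returns eIF2 to its unphosphorylated form, was at 6.72, 6.77 and 6.65 with AA2G and at 6.82, 6.87 and 6.83 without. Every AA2G replicate lay below every untreated replicate, opposite in direction to Chac1 and Atf3, at -0.12 ± 0.07 (SE; limma adjusted p = 0.652). Eif2ak3 (13666), the gene of PERK, was at 7.01, 6.74 and 6.84 with AA2G and at 7.01, 6.71 and 6.66 without, with overlapping groups and a fold change of 0.07 ± 0.11. Cebpb, a transcription factor that can pair with ATF4, was at 0.12 ± 0.09.

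**Figure D2:**
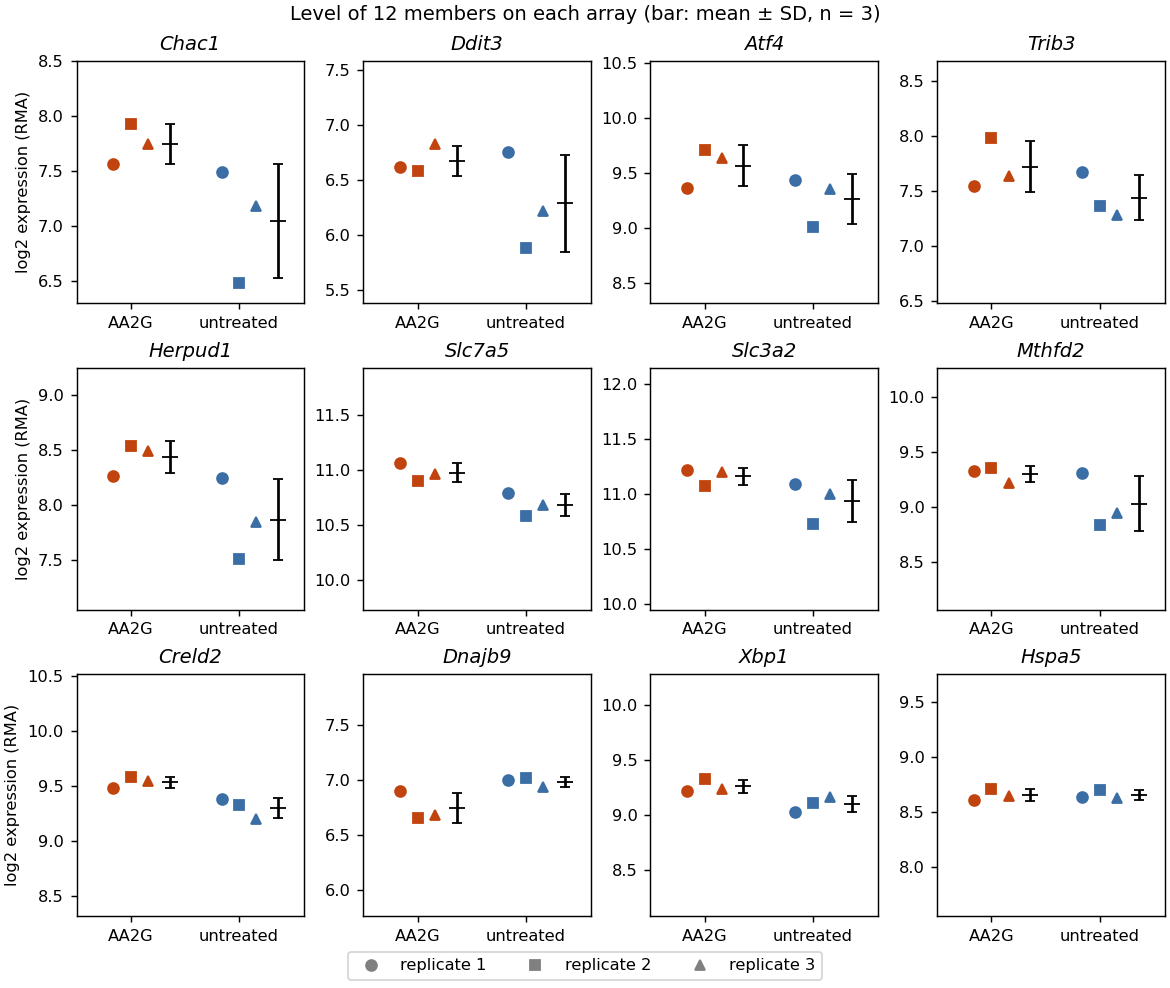
The log2 expression of 12 members on each of the 6 arrays, AA2G to the left of untreated, with point shape giving the replicate and the bar the mean ± SD over 3 arrays; every panel spans the same height. Chac1, Ddit3, Atf4 and Herpud1 have their lowest point in untreated replicate 2 (6.48, 5.88, 9.004 and 7.51), while Slc7a5 and Creld2 separate the groups with a narrower spread and Hspa5 does not separate them.

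Both chains of an amino acid transporter had positive values. Slc7a5 (20539) encodes LAT1, which carries leucine and other large neutral amino acids and works as a pair with the heavy chain encoded by Slc3a2 (17254). Slc7a5 was at 11.07, 10.90 and 10.97 with AA2G and at 10.79, 10.58 and 10.68 without, and every AA2G replicate lay above every untreated one. Its fold change of 0.29 ± 0.08 (SE; limma adjusted p = 0.251) had the smallest p of all members, and it was 0.24 without untreated replicate 2. Slc3a2 was at 11.21, 11.07 and 11.20 with AA2G and at 11.09, 10.72 and 11.00 without, with an overlap at AA2G replicate 2. Its fold change was 0.23 ± 0.11 (adjusted p = 0.547) and 0.12 without untreated replicate 2.

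Among the enzymes of serine, one-carbon and asparagine synthesis, Mthfd2 had the largest value. Mthfd2 (17768), a mitochondrial folate enzyme, was at 9.33, 9.36 and 9.22 with AA2G and at 9.31, 8.84 and 8.95 without, a fold change of 0.27 ± 0.12 (SE; limma adjusted p = 0.538). Asns (27053), asparagine synthetase and a classical ATF4 target, was at 10.80, 10.62 and 10.63 with AA2G and at 10.79, 10.46 and 10.62 without. Its groups overlapped, and the value of 0.06 ± 0.10 had a 95% interval from -0.17 to 0.30. The serine pathway genes Phgdh, Psat1 and Shmt2 were at 0.09, 0.02 and 0.06. In all 5 enzyme genes untreated replicate 2 was the lowest of the 6, and without it 4 of the 5 values were below 0, the median being -0.02.

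The tRNA synthetase genes charge tRNAs with serine (Sars), tryptophan (Wars) and asparagine (Nars). Their values were 0.07, 0.06 and 0.03, and for each gene the groups overlapped. Among these 3 genes the limma adjusted p was 0.874 for Sars, 0.9 for Wars and 0.948 for Nars.

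For the sensors themselves no difference was detected. Ern1 (78943) was at 6.54, 6.43 and 6.45 with AA2G and at 6.47, 6.48 and 6.47 without, a difference with a 95% interval from -0.16 to 0.16. Atf6 (226641) was at 8.67, 8.62 and 8.66 with AA2G and at 8.69, 8.61 and 8.54 without, with an interval from -0.13 to 0.20. Xbp1 (22433), whose transcription is itself induced by ER stress, was at 9.22, 9.33 and 9.23 with AA2G and at 9.02, 9.11 and 9.16 without. Here every AA2G replicate was above every untreated one, at 0.16 ± 0.07 (SE; limma adjusted p = 0.547), and the array does not separate the spliced from the unspliced transcript.

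The abundant ER chaperone genes Hspa5, Hsp90b1, Calr and Canx had values close to 0 with narrow intervals. Hspa5 (14828), which encodes BiP, the central Hsp70 chaperone of the ER, was at 8.61, 8.71 and 8.64 with AA2G and at 8.63, 8.71 and 8.63 without. The fold was 0.998 with a 95% interval of 0.892 to 1.12. The other chaperones Hsp90b1, Calr and Canx were at 0.04, -0.01 and 0.05, with intervals that stayed between -0.17 and 0.22. The folding enzyme gene Pdia6 was at 0.07. The chaperone and co-chaperone genes Hyou1 and Dnajc3 were at 0.11 and 0.05, and at 0.05 and -0.03 without untreated replicate 2. With all arrays their 95% intervals were wider, from -0.08 to 0.30 for Hyou1 and from -0.23 to 0.34 for Dnajc3.

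The larger values among ER luminal proteins came from other genes. Creld2 (76737), a disulfide isomerase-like protein, was at 9.48, 9.58 and 9.54 with AA2G and at 9.38, 9.33 and 9.21 without. Its groups did not overlap, and the value of 0.23 ± 0.08 (SE; limma adjusted p = 0.342) was 0.24 without untreated replicate 2. Sdf2l1, which acts in BiP complexes, was at 0.26 ± 0.14 with overlapping groups, and at 0.13 without untreated replicate 2. Manf, a small secreted protein that binds BiP, was at 0.09 ± 0.07, with all AA2G replicates above all untreated ones.

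Dnajb9 (27362), which encodes ERdj4, a co-chaperone induced through XBP1 that recruits BiP to IRE1, ran the other way. It was at 6.90, 6.65 and 6.68 with AA2G and at 6.995, 7.02 and 6.93 without. Every AA2G replicate was below every untreated one, at -0.24 ± 0.09 (SE; limma adjusted p = 0.39), so Dnajb9 and Xbp1 had values of opposite sign.

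Of the degradation genes, Herpud1 (64209), an ER membrane protein that binds the ubiquitin ligase machinery, was at 8.27, 8.54 and 8.50 with AA2G and at 8.25, 7.51 and 7.85 without. The groups were separated by 0.02 at their nearest replicates, and the order of the untreated replicates was that of Chac1, Ddit3 and Atf4. The fold change was 0.57 ± 0.17 (SE; limma adjusted p = 0.291), or a fold of 1.48 with a 95% interval of 1.12 to 1.95. The ligase Syvn1 (HRD1) was at 0.02 and its partner Sel1l at 0.15, both with overlapping groups. Edem1, a lectin that directs misfolded glycoproteins to degradation, was at -0.03 at its brighter feature and at 0.09 at its dimmer one, which lay below the array medians.

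The order of the untreated replicates seen in Herpud1, with 1 highest and 2 lowest, held for 20 of 37 member features (54.1%, against 21.3% of all features), 13 of 18 in the ATF4 branch and 7 of 19 in the XBP1 and ATF6 branch. Promoter sequence was then examined to see what the members share. In the 250 bases before the RefSeq gene start (build GRCm38.p6), 4 motifs were searched on both strands. The CARE core, TGATGNAA, is bound by ATF4 with a C/EBP partner. The ER stress element is CCAAT and, 9 bases further on, CCACG, and its short form, element II, is ATTGG followed after 1 base by CCACG. The last was the UPRE core, TGACGTG, known for XBP1 and ATF6. No pair of these motifs overlapped in a member promoter.

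Promoters were at hand for 32 of the 38 listed genes. The CARE core was found in 5 of them (Aars, Asns, Atf3, Chac1 and Herpud1), against 3.45% of all 32851 promoters. The ER stress element was found in 8 (Calr, Canx, Creld2, Dnajc3, Hsp90b1, Hspa5, Pdia6 and Syvn1), against 0.113% of all promoters. Element II was found in Herpud1, against 0.0304%, and the UPRE core in Hspa5, against 1.65%. The genes were listed as known targets of ATF4, XBP1 and ATF6 or as ER chaperones, so motif shares above those of all promoters are no independent result. Herpud1 was the only one of the 32 with both the CARE core and a form of the ER stress element. The windows below show the 4 tested genes with a CARE core and 3 with an ER stress element, 5′ to 3′ on the strand of the gene, with the motif letters (and the bases between them) in capitals.
Herpud1: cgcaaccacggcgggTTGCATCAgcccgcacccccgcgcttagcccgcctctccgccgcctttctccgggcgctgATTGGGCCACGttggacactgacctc
Chac1: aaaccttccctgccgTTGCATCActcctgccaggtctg
Atf3: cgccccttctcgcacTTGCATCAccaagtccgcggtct
Asns: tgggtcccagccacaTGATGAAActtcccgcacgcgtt
Creld2: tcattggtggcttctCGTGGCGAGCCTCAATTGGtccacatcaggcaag
Hspa5: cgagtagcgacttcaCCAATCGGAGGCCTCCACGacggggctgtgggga
Calr: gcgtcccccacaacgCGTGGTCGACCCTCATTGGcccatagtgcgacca

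These windows lie at chr8:94386302-94386402 (Herpud1, plus strand), chr2:119351034-119351071 (Chac1, plus), chr1:191183421-191183458 (Atf3, minus), chr6:7693210-7693247 (Asns, minus), chr15:88819505-88819553 (Creld2, plus), chr2:34772010-34772058 (Hspa5, plus) and chr8:84847060-84847108 (Calr, minus). All are upstream of the annotated start. The CARE core begins 112 bases before the start in Herpud1, 193 in Chac1, 110 in Atf3 and 23 in Asns, and in the first 3 it reads TTGCATCA on the strand shown. The 4 tested genes with a CARE core had fold changes from 0.06 (Asns) to 0.70 (Chac1). The 8 with an ER stress element ran from -0.01 (Calr) to 0.23 (Creld2), with a median of 0.05. Herpud1, counted here among the CARE core genes, also has the short form, element II, and was at 0.57. A match is a description of letters, and binding was not measured.

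The 6 arrays were next compared with each other, because the members varied among untreated replicates as well as between groups. Untreated replicate 2 had the lowest value of all 6 arrays for 20 of the 37 member features (54.1%), against 18.6% of all features. In the ATF4 branch it was the lowest for 13 of 18, and in the XBP1 and ATF6 branch for 7 of 19. Over all features this array was not low, since its median deviation from the 6-array mean was 0.01, against -0.18 in the ATF4 branch. Untreated replicate 1 went the other way in that branch, with a median deviation of 0.08, close to the 0.11 of AA2G replicate 1.

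The spread within groups was compared as well. Untreated replicates had the larger SD for 27 of 37 member features (73.0%), against 53.1% of all features. The share was 71.6% among the 134 features of further pathway genes read below, so it was not particular to the members. By list of those further genes it ran from 45.5% (eIF2 kinases and eIF2 control) to 91.7% (cytosolic heat shock). In the ATF4 branch the median SD was 0.10 among AA2G replicates and 0.16 among untreated replicates, and over all features it was 0.10 with AA2G and 0.11 without. AA2G arrays had the same order, 1 highest and 2 lowest, in the serine, one-carbon and asparagine enzymes, with median deviations of 0.15, -0.03 and 0.03. Among the 8 regulators they did not, at 0.02, 0.12 and 0.13 for AA2G replicates 1, 2 and 3. Why replicates differed within a group was not tested, and no label names a difference between them.

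**Figure D3:**
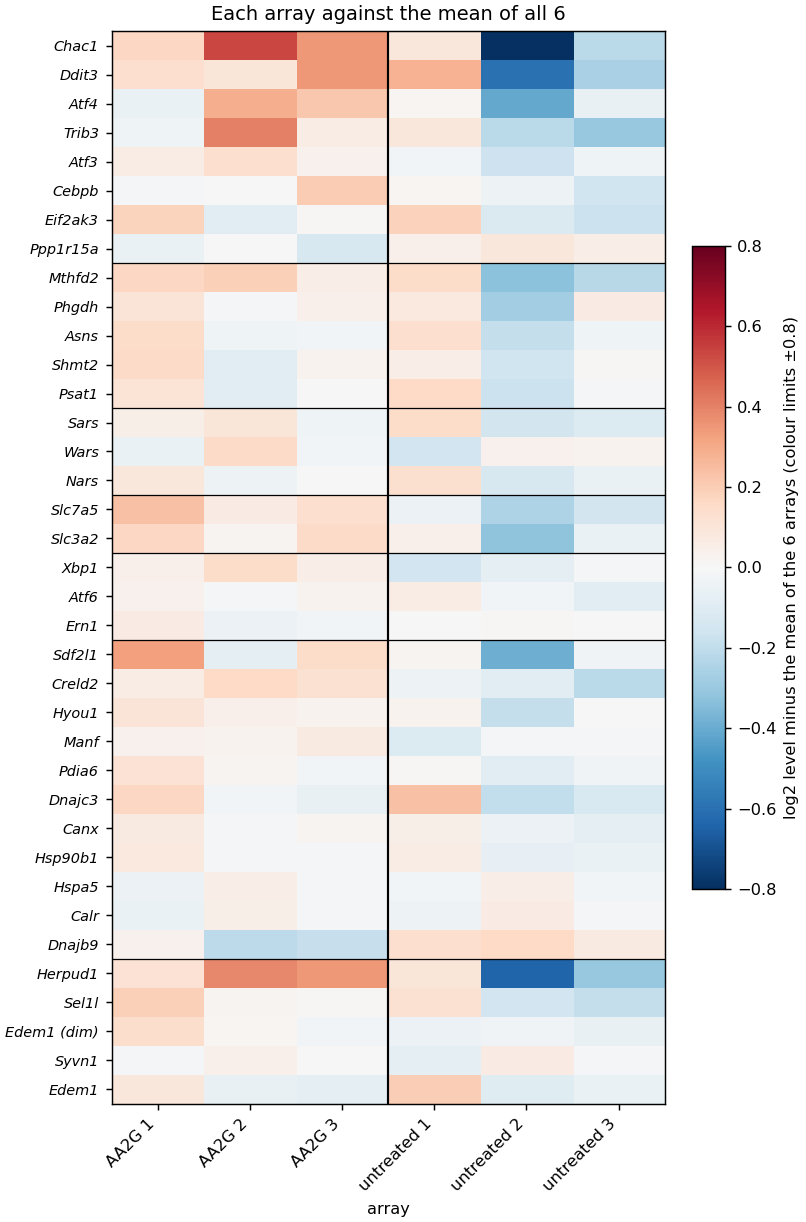
Each row is a member feature and each column an array, AA2G left of untreated, with colour giving the log2 level minus the mean of the 6 arrays; horizontal lines part the roles, from stress regulators at the top to ER-associated degradation at the bottom. The untreated 2 column is the lowest of the 6 for 20 of 37 rows, with the deepest colour for Chac1, Ddit3 and Herpud1, and the untreated 1 column resembles AA2G 1 in the ATF4 branch.

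Leaving out untreated replicate 2 lowered the values of most stress regulators and of Herpud1, while Cebpb and Ppp1r15a rose slightly, to 0.13 and -0.11. Chac1 was then at 0.41, Herpud1 at 0.39, Ddit3 at 0.18 and Atf4 at 0.17, each with 3 AA2G and 2 untreated arrays. Of the 31 positive features 25 were positive again and 6 turned negative (Phgdh, Shmt2, Asns, Psat1, Nars and Dnajc3), while Calr, Hspa5 and Ern1 turned positive, at 0.02, 0.02 and 0.0021. The member median was 0.05, and 4 features (10.8%) were higher at an unadjusted p under 0.05, against 4.46% of all features in that fit. The 3 AA2G arrays then lay above both remaining untreated arrays for 9 member features (24.3%), against 12% of all features. Leaving out untreated replicate 1 had the opposite effect: Chac1 was at 0.92, Herpud1 at 0.76 and Ddit3 at 0.62, the member median was 0.15, and 10 features (27.0%) were higher at an unadjusted p under 0.05, against 5.19% of all features in that fit. In neither fit did a member pass the adjusted threshold, the smallest such limma adjusted p being 0.0941 for Herpud1 without untreated replicate 1.

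The labels number the replicates 1 to 3 in both groups without saying what a number shares, and the difference was also read at each number. The median AA2G minus untreated difference in the ATF4 branch was 0.01 at number 1, 0.26 at number 2 and 0.13 at number 3. Among the 8 regulators it was -0.05, 0.46 and 0.32 at the 3 numbers. Chac1 differed by 0.08, 1.45 and 0.56, Ddit3 by -0.14, 0.70 and 0.61, Atf4 by -0.07, 0.70 and 0.28, and Herpud1 by 0.02, 1.03 and 0.65. For these 4 genes the difference at number 1 was thus near 0 or below it, and that at number 2 was the largest.

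The transporter and ER luminal genes were more even. Slc7a5 differed by 0.28, 0.31 and 0.29 at numbers 1, 2 and 3, Creld2 by 0.10, 0.25 and 0.34, and Dnajb9 by -0.10, -0.37 and -0.26. In the XBP1 and ATF6 branch the median differed by 0.06, 0.05 and 0.04. AA2G was above untreated at each number for 18 of 37 member features (48.6%, against 15.8% of all features) and below at each for 2 (5.41%, against 20.2%). At numbers 1 and 3 alone it was above at both for 19 (51.4%), against 27% of all features.

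**Figure D4:**
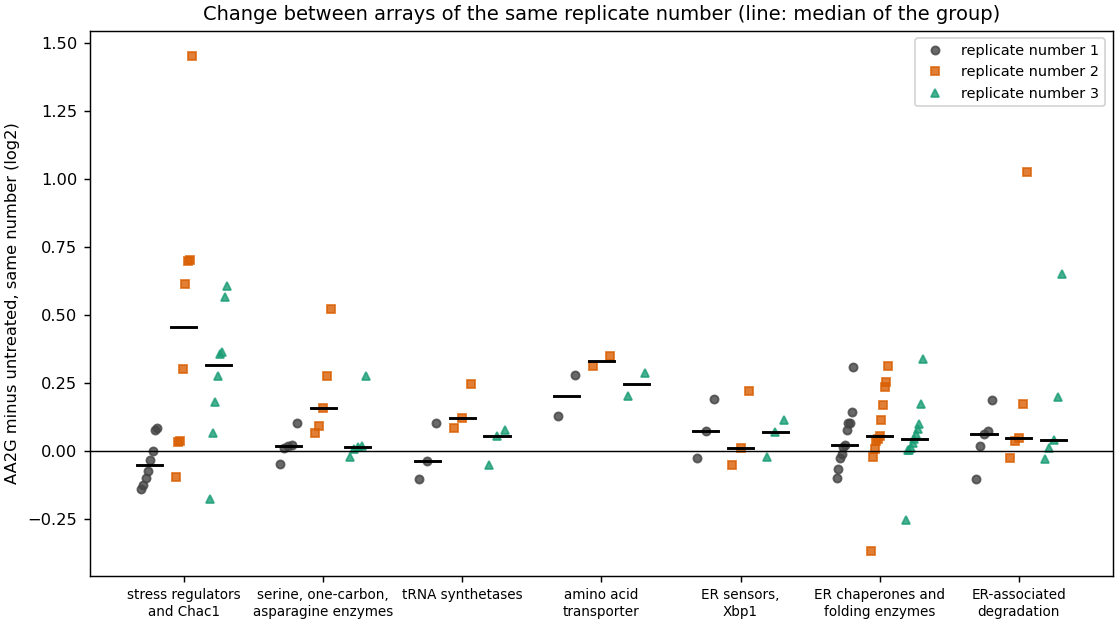
The difference between the AA2G and the untreated array of the same replicate number, in log2 units, for each member feature by role, with a line at the median of each role and number. The regulators have medians of -0.05, 0.46 and 0.32 at numbers 1, 2 and 3, while the transporter genes lie above 0 at each number and the median of the ER chaperones stays near 0 (0.02, 0.06 and 0.04), with Dnajb9 below it and Creld2 and Sdf2l1 above it at each number.

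The rest of the pathway was read from 11 lists of 130 further genes, of which 120 were measured by 134 features. In limma 0 of these features passed the adjusted threshold. Without adjustment 3 reached a p under 0.05 as higher (2.24%, against 4.66% of all features) and 5 as lower (3.73%, against 5.06%), shares below those of all features, and the median was 0.03. The largest value of the transporter list belonged to Slc7a1, a carrier of arginine and lysine, which was at 8.76, 8.83 and 8.80 with AA2G and at 8.58, 8.42 and 8.59 without, or 0.27 ± 0.08 (SE; adjusted p = 0.246). Slc7a11, the cystine carrier, was at 0.21 at its brighter feature, which lay below the array medians in both groups. The 10 transporter features had a median of 0.06.

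Among the other ATF4 and CHOP targets 11 of 14 features were positive with a median of 0.11, and without untreated replicate 2 the median was -0.07 with 4 positive. Eif4ebp1, which restrains cap-dependent translation, was at 0.13, and Bbc3, the pro-apoptotic gene of PUMA, at -0.16; without that replicate they were at 0.08 and -0.27. Untreated replicate 2 was the lowest array for 11 of these 14 features, as for the members. The 15 other tRNA synthetase features had a median of 0.01, with Farsb at 0.09 and Cars at 0.14, and Cars was at 0.0051 without untreated replicate 2. The other amino acid and one-carbon enzymes had a median of -0.02, with the serine enzyme Psph at 0.24 (0.13 without untreated replicate 2) and Cth, which makes cysteine, at -0.27.

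Upstream, the list of eIF2 kinases and eIF2 control genes had a median of 0.02. Gcn1, which relays amino acid shortage to the kinase GCN2, was at 7.95, 7.92 and 7.89 with AA2G and at 8.14, 8.10 and 8.08 without, or -0.19 ± 0.07 (SE; limma adjusted p = 0.388), at its dimmer feature. Its brighter feature was at 0.03. The interferon-induced eIF2 kinase gene Eif2ak2 was at 0.20. The other ER sensors had a median of -0.01, with Creb3l1 at -0.21 and Creb3l2 at 0.20, the last at 0.11 without untreated replicate 2.

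On the ER side, Ube2j1, the ubiquitin-conjugating enzyme of ER-associated degradation, had the smallest p of all 11 lists. It was at 7.13, 6.98 and 7.12 with AA2G and at 7.35, 7.41 and 7.38 without, or -0.30 ± 0.07 (SE; limma adjusted p = 0.164), and the groups did not overlap. Derl3, a channel component of the same machinery, was at 0.46 ± 0.18 (adjusted p = 0.466) with overlapping groups, and at 0.30 without untreated replicate 2. The 14 translocation and glycosylation genes were mostly positive, 14 of 16 features with a median of 0.09, among them Sec61b at 0.16 and Sec61a1 at 0.11. The other ER chaperones had a median of 0.04, with Erp44 at 0.23 (0.15 without untreated replicate 2) and Ppib at 0.15.

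Stress genes outside the ER had medians near 0. The mitochondrial chaperones and proteases had a median of -0.00, with Hspe1 at 0.19 and Dnaja3 at -0.13 at 1 of its 3 features and between -0.01 and 0 at the others. Of 12 cytosolic heat shock features 4 were positive and the median was -0.02, and the inducible Hsp70 genes Hspa1b and Hspa1a were at -0.50 ± 0.13 and -0.33 ± 0.10 (SE; limma adjusted p = 0.195 and 0.286). Hspa1b was at 5.29, 5.10 and 5.32 with AA2G and at 6.02, 5.60 and 5.59 without, with no overlap. These neighbouring genes are nearly identical in sequence, so their probes may not tell them apart.

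**Figure D5:**
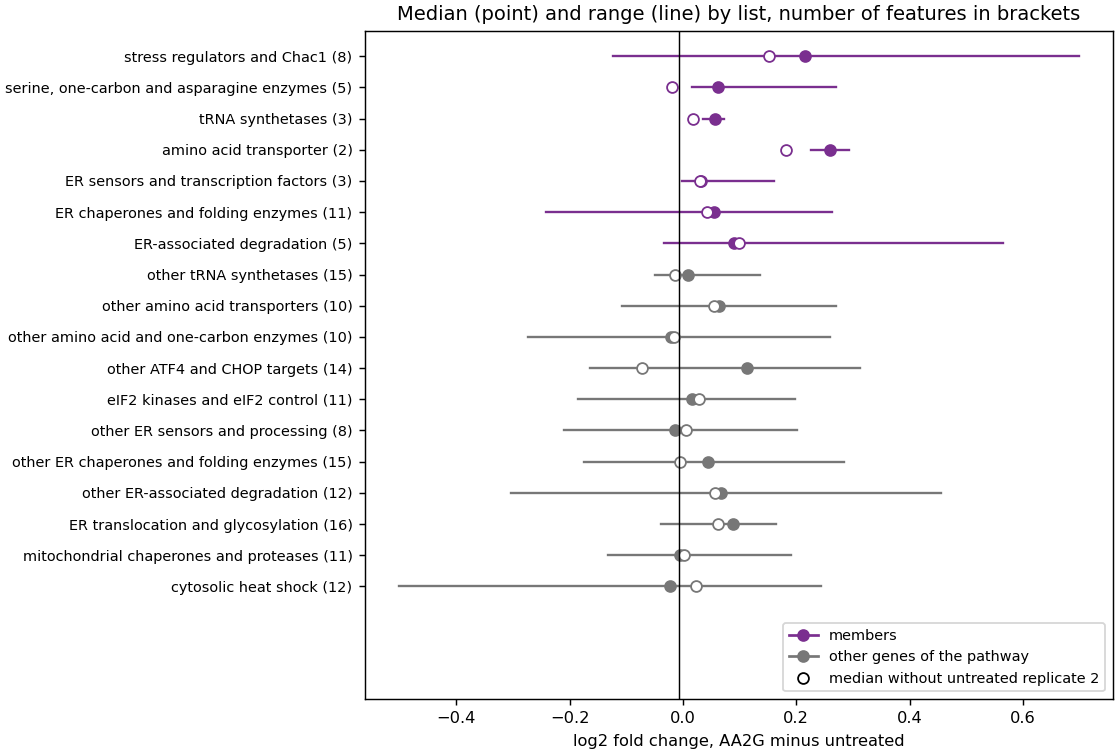
The median (filled point) and range (line) of the log2 fold change in each list, members in purple and other pathway genes in grey, with an open point for the median without untreated replicate 2 and a vertical line at the median of all features. The regulators and the transporter have the highest medians (0.22 and 0.26), and the median of the other ATF4 and CHOP targets is 0.11, and -0.07 when untreated replicate 2 is left out.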

How the data were processed

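Expression was measured on 6 arrays, 3 AA2G and 3 untreated. Per the submitters' processing notes, the authors made the deposited log2 values with RMA in Affymetrix Expression Console; software versions and filtering: not given in the sources used here. The table has no detection calls, and an array gives no read depth, so the number of arrays limits the precision.

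Of 41345 features, 23521 have 1 annotated symbol, 1814 have several and 16010 have none listed; the first were tested (22180 genes). AA2G was compared with untreated across all of them in limma 3.58.1 (R 4.3.3; lmFit, eBayes, two-sided, no covariate), with Benjamini-Hochberg adjustment over all 23521 features and a threshold of 0.05. Counts and medians use all features of a gene. An exact permutation test of 3 against 3 cannot give a p under 0.1, so none was used. Spread between replicates, possibly technical, is all that the p-values measure.

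Described in full are the 12 members with the smallest unadjusted p and 9 set by name, 18 genes in all; of each further list, the 2 genes with the smallest p. Members and lists were chosen with earlier results of these data known. Promoter and gene names are from RefSeq (GRCm38.p6). The procedure was tested on simulated data. Alternatives were other normalizations, priors, weights, filters, feature choices, the replicate number as a block and leaving out arrays.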

Additional observations from a re-analysis of the deposited data

How the results depend on the processing

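The count of members past the adjusted threshold was 0 under every alternative run. Of 324 alternative values of the 18 members described in full, 309 kept their direction, 0 passed the threshold and 15 turned. Not all of the 309 could have turned. Other priors or variances, filters, feature choices and the replicate block with all arrays kept left each of these fold changes identical. A direction could change only with other normalizations, array weights or arrays left out, so the 309 overstates how firmly directions held. The number of all features called was 179 (143 higher, 36 lower), and 277 with the trended robust prior, 13 with ordinary per-feature variances, 496 with array weights (303 higher, 193 lower) and 85 when features without a single symbol were fitted too. It ranged from 64 without untreated replicate 3 to 131 without AA2G replicate 1. With both arrays of number 1, 2 or 3 left out it was 22, 25 and 39. Every fit without both arrays of a number also had the replicate number as a block, so its counts reflect both changes. Members with an unadjusted p under 0.05, counts added after seeing the data, were 4 higher and 1 lower. The higher ones were 8 with the trended prior, 10 with array weights and 2 to 10 with arrays left out. The lower ones were 2 with ordinary variances, 2 with array weights and 0 to 1 with arrays left out. The member median was 0.07, and 0.045 to 0.15 with arrays left out. The median of the ATF4 branch was 0.11, and 0.082 to 0.17 with arrays left out. The median of the XBP1 and ATF6 branch was 0.05, with 0.075 under array weights and 0.027 to 0.090 with arrays left out. Signs turned where values lay near 0. Hspa5 was at 0.0053 with array weights, -0.032 to 0.022 with 1 array left out and 0.0085 without number 1. Ern1 was at 0.0094 with normalization repeated, -0.035 to 0.021 with 1 array left out, and 0.025 and 0.010 without numbers 2 and 3. Asns ranged from -0.019 to 0.15, Eif2ak3 from -0.0026 to 0.18 and Atf6 from -0.0034 to 0.071 with 1 array left out, and Atf6 was at -0.0082 without number 3. The cause was not tested.

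Deviations of same-numbered arrays correlated at 0.23, 0.22 and 0.02 over all features for numbers 1, 2 and 3. The numbers were not taken to pair the replicates, although over all features each array correlated best with its own number. Over the 37 member features the same-number correlations were -0.15, -0.03 and 0.16. There AA2G replicates 1 and 3 correlated best with untreated replicates 2 and 1, at 0.20 and 0.24. With the replicate block 155 features and 0 members were called. The table carries no signal over background, so its limit on dim features, such as the second one of Edem1 and those of Slc7a11, could not be measured.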
